A study of Caenorhabditis elegans with 2 samples.

Results

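The 10 genes described here are ND1, ND2, ND3, ND4, ND5, ND6, COX1, COX2, COX3 and CYTB, protein-coding genes of the mitochondrial genome of the nematode Caenorhabditis elegans. They were taken by name from the RefSeq annotation, which lists 12 protein-coding genes on this molecule and 19983 in the whole genome. The peaks assigned to them are those whose summit lies inside the gene body. There were 16 of 7516 such peaks in replicate 1, 18 of 30000 in replicate 2, 15 of 30000 in the list made from both replicates pooled, and 12 of 140 in the final list that the authors' reproducibility threshold left. The genes and the lists were chosen by these same values, so the counts, signals, ranks and summit distances below are a description, with no test.

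The data are chromatin immunoprecipitation followed by sequencing (ChIP-seq) of NHR-76, a nuclear hormone receptor, in whole mixed-stage embryos of mixed sex from strain OP203. Per the labels, the strain carries the mutation unc-119(ed3) III and the transgene wgIs203, which expresses NHR-76 with GFP and FLAG joined to its C terminus. The sole group holds 2 biological replicates, the labels name nhr-76 as the antibody's target, and they do not describe the promoter of the transgene. Whether the whole-embryo label fits could not be checked against marker genes, since peak lists measure no expression. The 2 libraries were peak-called against a control, but neither an untagged strain nor a second condition was analysed here. The final list is a subset of the pooled candidates, with the same signal values.

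Mitochondria keep a small circular genome of their own, which is copied and transcribed inside the organelle by dedicated enzymes. In the worm every gene on it is read from the same strand, and its proteins are core subunits of the respiratory chain and of ATP synthase. The ND genes encode subunits of complex I (NADH dehydrogenase), CYTB encodes cytochrome b of complex III, and the COX genes encode the catalytic core of complex IV (cytochrome c oxidase). Nuclear hormone receptors are DNA-binding transcription factors of the nucleus. The deposited lists were made from DNA of whole embryos, so they cannot say where in the cell a signal arose.

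The sequences under 6 of the summits are shown first, because their position and base composition carry most of what follows. They are read 5′ to 3′ on the plus strand, the coding strand, of the RefSeq sequence of WBcel235, the assembly of ce11. Each is 201 bases, centred between the replicate summits, and the capitals run from the replicate 1 summit to the replicate 2 summit, so a short run of capitals marks close agreement.
ND5, strongest peak, chrM:12373-12573: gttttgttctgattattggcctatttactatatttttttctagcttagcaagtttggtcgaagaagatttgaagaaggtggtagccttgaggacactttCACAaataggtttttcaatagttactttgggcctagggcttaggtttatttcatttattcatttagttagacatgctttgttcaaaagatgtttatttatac
ND5, second peak, chrM:13111-13311: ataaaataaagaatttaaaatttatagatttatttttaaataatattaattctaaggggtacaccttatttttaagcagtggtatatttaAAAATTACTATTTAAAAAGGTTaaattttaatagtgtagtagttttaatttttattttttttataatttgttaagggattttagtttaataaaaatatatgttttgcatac
COX3, strongest peak, chrM:5909-6109: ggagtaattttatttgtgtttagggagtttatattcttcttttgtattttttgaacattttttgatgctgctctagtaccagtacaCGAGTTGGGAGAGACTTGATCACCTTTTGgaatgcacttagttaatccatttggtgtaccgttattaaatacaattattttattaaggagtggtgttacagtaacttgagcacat
ND6, chrM:193-393: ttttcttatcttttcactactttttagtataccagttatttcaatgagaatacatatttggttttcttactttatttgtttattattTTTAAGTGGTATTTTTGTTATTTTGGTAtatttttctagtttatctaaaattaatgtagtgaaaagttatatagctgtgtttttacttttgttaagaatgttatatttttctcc
ND3, chrM:11277-11477: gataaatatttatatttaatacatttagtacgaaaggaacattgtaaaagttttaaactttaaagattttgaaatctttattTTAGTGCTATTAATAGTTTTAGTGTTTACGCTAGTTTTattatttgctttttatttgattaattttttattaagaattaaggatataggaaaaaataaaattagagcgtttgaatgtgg
ND4, chrM:7149-7349: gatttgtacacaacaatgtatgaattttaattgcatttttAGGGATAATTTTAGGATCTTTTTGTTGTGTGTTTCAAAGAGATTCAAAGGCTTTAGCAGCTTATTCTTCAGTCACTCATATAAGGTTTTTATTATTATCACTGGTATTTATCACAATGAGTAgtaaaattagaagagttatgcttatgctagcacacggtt
The capitals cover 4 bases in the strongest ND5 peak and 122 bases in ND4, with COX3 (29 bases), ND6 (28), ND3 (38) and the second ND5 peak (22) between them. Not all bases shown lie in the named gene. The ND3 stretch begins before the gene start at 11356, and that of the second ND5 peak runs past the gene end at 13274.

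ND5, the largest of the ND subunits and part of the proton-pumping membrane arm of complex I, held the strongest peak in each list. Its signal was 91.7 in replicate 1, 360 in replicate 2 and 442 in the pooled list. The next peak of the whole list was also mitochondrial each time and lower by a ratio of 2.89 in replicate 1 (COX1, 31.8), 2.51 in replicate 2 (COX3, 143) and 2.99 in the pooled list (COX3, 148). Relative to the median of all mitochondrial peaks of the same list, the ND5 peak stood 6.89 times higher in replicate 1 and 9.52 times higher in the pooled list, with replicate 2 between them. The scale of the signal values is not stated, so values are compared within a list and not between lists.

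The strongest ND5 summit lay near the middle of the gene, on chromosome M, the mitochondrial genome. The gene spans 11691 to 13274 (ce11), and the summit was at base 12472 in replicate 1, 12475 in replicate 2 and 12474 in the pooled list. The replicates therefore differed by 3 bp, 49.3% and 49.5% of the way along the gene. The peak was also narrower than usual in every list, with 189 bp in replicate 1, where the usual width was 360 bp, 336 bp in replicate 2, where it was 420 bp, and 305 bp in the pooled list, where it was 340 bp. In replicate 1 it was the single peak narrower than the usual width among 7516, and in replicate 2 it was 1 of 6 among 30000. In the pooled list it was 1 of 7 among 30000, and all 7 were on the final list, where they made up 5% of the 140 peaks.

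A further ND5 summit lay close to the 3′ end of the gene in both replicates, at 13222 in replicate 1 (signal 7.43) and 13201 in replicate 2 (43.3), 21 bp apart. It ranked 19 among the mitochondrial peaks of replicate 1 and 10 among those of replicate 2. Replicate 1 alone listed another summit in ND5, at 11965 with a signal of 12.9, 510 bp from the nearest summit of replicate 2.

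**Figure D1:**
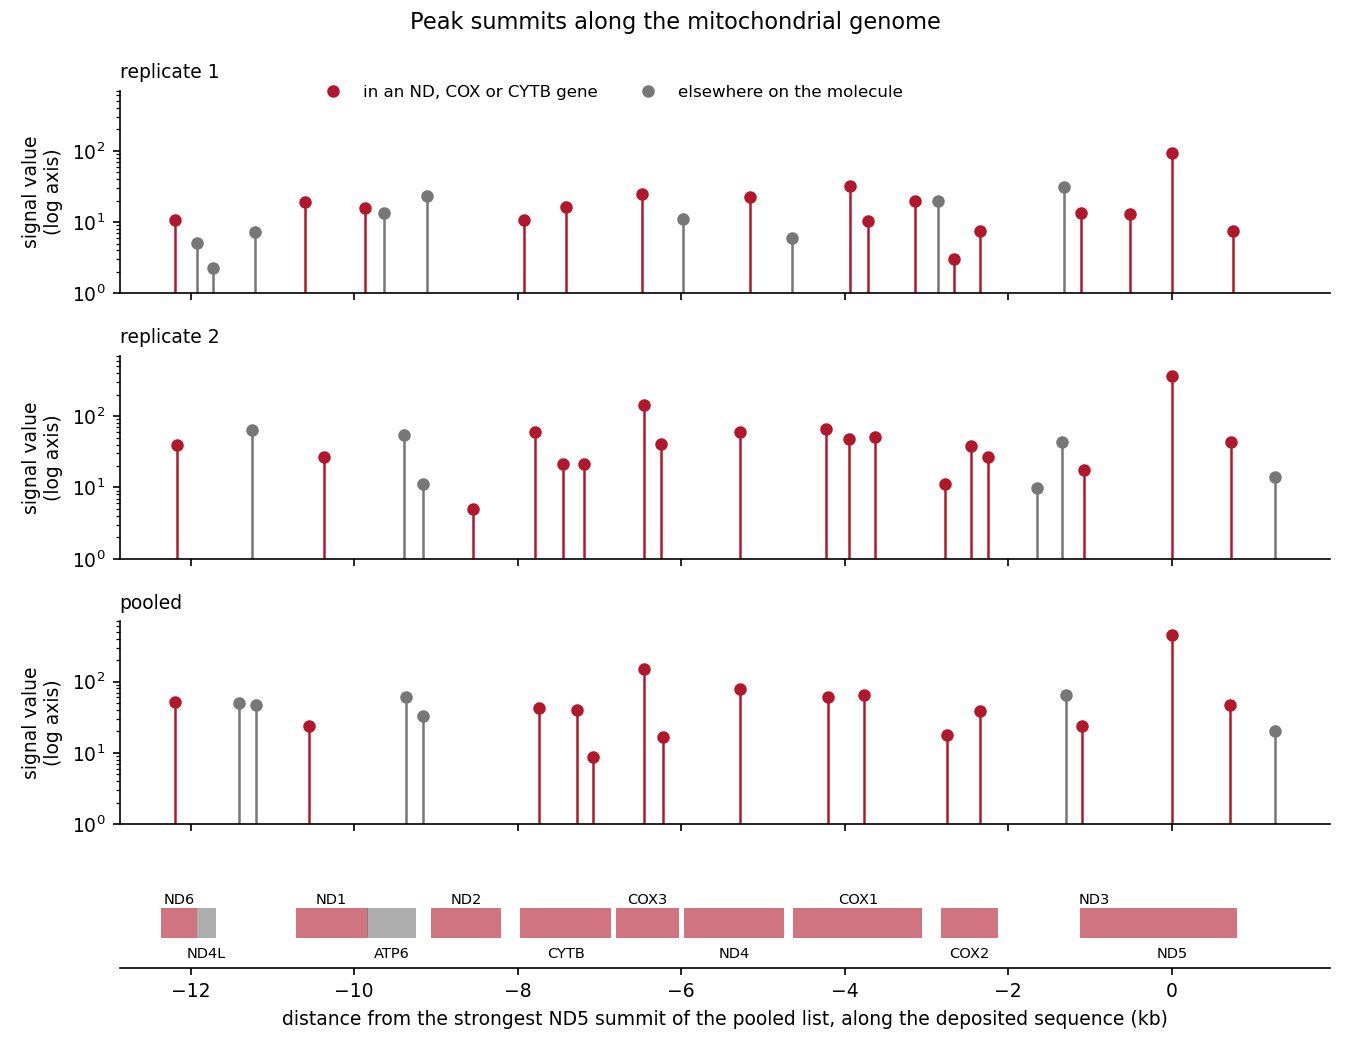
Signal value of each mitochondrial peak (y, log axis, 1 panel each for replicate 1, replicate 2 and the pooled list) at its summit, placed by distance in kb from the strongest ND5 summit of the pooled list (x). Red marks summits in ND, COX or CYTB genes and grey those elsewhere on the molecule, with the protein-coding genes drawn below in the same colours. The ND5 peak at 0 is the highest in all 3 panels, and summits are spread over most of the molecule.

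The other ND genes ranged from strong peaks at ND4 to a nearly empty ND2. ND4, a membrane subunit of complex I, had 1 summit per list, with a signal of 22.8 in replicate 1, 60.1 in replicate 2 and 79.8 in the pooled list. It ranked 6 among all peaks of replicate 1, 8 in replicate 2 and 5 in the pooled list. Its replicate summits, at 7310 and 7189, were 121 bp apart, although its rank was similar in both.

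ND6, another membrane subunit, had 1 summit per list, with a signal of 10.7 in replicate 1, 38.9 in replicate 2 and 51.7 in the pooled list. Its summit lay at 280 in replicate 1 and at 307 in replicate 2, 27 bp apart. Its rank in the pooled list, 14, was better than in either replicate alone, 44 in replicate 1 and 20 in replicate 2. ND3, a small membrane subunit, had a summit close to its 5′ end, 3 bp from the gene start in replicate 1 and 40 bp from it in replicate 2, with signals of 13.4 and 17.4. Its pooled summit, with 23.8, lay 24 bp into the gene, and this peak covered 194 bp of the gene and reached back into the neighbouring large rRNA gene.

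ND1, the membrane subunit next to the quinone site, was listed with different summits in each replicate. Replicate 1 had summits at 1875 (signal 19.0) and 2613 (15.7), and replicate 2 had 1, at 2101 (26.7), 226 bp from the nearer of these. The pooled summit, at 1928 with 23.9, ranked 85 of 30000. ND2 was the exception among the 10 genes, with no summit in replicate 1, in the pooled list or in the final list. Replicate 2 listed a single ND2 summit, at 3933 with a signal of 4.96, the lowest of its mitochondrial peaks and rank 8225 of 30000. Just before ND2, which starts at 3418, summits in tRNA genes were listed at 3371 in replicate 1 (23.1) and at 3316 in replicate 2 (11.2).

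CYTB, the cytochrome b gene, was a gene of several moderate peaks. Its highest signal was 16.3 in replicate 1, 60.7 in replicate 2 and 42.6 in the pooled list, but at different places. The highest summit was at 5069 in replicate 1 and at 4690 in replicate 2. The summits that did match lay at 5069 in replicate 1 and 5031 in replicate 2, 38 bp apart, with signals of 16.3 and 21.2. Of the 3 pooled summits in CYTB, the one at 5401 (8.87) was the weakest mitochondrial peak of that list.

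COX3, a core membrane subunit of complex IV, held the next-strongest peak after ND5 in replicate 2 and in the pooled list. Its signal was 24.5 in replicate 1, rank 4 of the whole list, 143 in replicate 2 and 148 in the pooled list, rank 2 in both. The summits lay at 5995 in replicate 1 and 6023 in replicate 2, 28 bp apart, near the middle of the gene at 41.3% and 45.0% of its length. A lower summit was listed at 6226 in replicate 2 (41.2) and at 6252 in the pooled list (16.7), and replicate 1 had none in COX3 near it.

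COX1, the largest of these subunits and the one that holds the oxygen-reducing centre, had 3 summits in each replicate. In replicate 1 they lay at 8544 (31.8), 8754 (10.4) and 9336 (19.8), and in replicate 2 at 8251 (65.0), 8529 (48.5) and 8839 (51.8). The summits at 8544 and 8529 were 15 bp apart, while the strongest of replicate 2, at 8251, was 293 bp from any summit of replicate 1. The pooled list had 2, at 8268 (59.9) and 8709 (64.7). COX2, which takes up electrons from cytochrome c, was the lowest of the COX genes in each list. Its highest signal was 7.40 in replicate 1, 38.7 in replicate 2 and 38.1 in the pooled list. The strongest COX2 summits of the replicates, at 10124 and 10022, were 102 bp apart. Further COX2 summits lay at 9810 (3.07) in replicate 1 and at 9699 (11.2) and 10229 (27.2) in replicate 2. The one at 10229 was 105 bp from that at 10124.

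**Figure D2:**
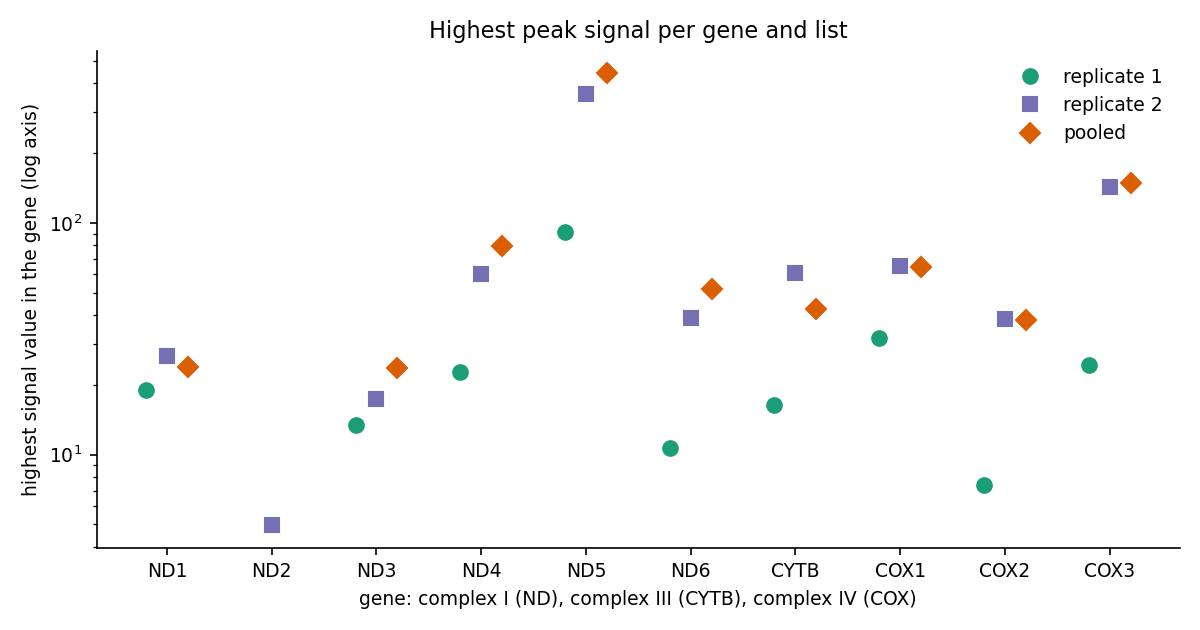
Highest signal value of a peak with its summit in each gene (y, log axis), for the 10 genes in the order of the complexes they belong to (x), with circles for replicate 1, squares for replicate 2 and diamonds for the pooled list. ND5 is highest in all 3 lists, and ND2 has a value in replicate 2 alone.

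Across the 9 genes with a summit in both replicates, the order of the highest signals was similar but not the same. ND5 came first in each, COX1, COX3 and ND4 were among the next 4, and ND3 was among the 3 lowest. The Spearman rho over the 9 genes was 0.77, and 0.67 over the 8 without ND5. Over the 8 summits in these genes that matched within 100 bp, rho was 0.43, and over all 12 matched mitochondrial summits it was 0.11. These are descriptions over genes and peaks of the same 2 libraries, and neighbouring genes share fragments.

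The summit positions of the replicates matched in part. Of the 16 summits of replicate 1 in these genes, 8 (50%) had a summit of replicate 2 within 100 bp, 7 within 50 bp and 12 within 170 bp. The median distance was 93.5 bp, from 3 bp to 510 bp. In the rest of the molecule, 4 of 9 summits (44.4%) matched within 100 bp, with a median distance of 244 bp. Of the 15 pooled summits, 12 were within 100 bp of a replicate 2 summit and 9 within 100 bp of a replicate 1 summit. Mitochondrial summits stood 1.81 per kb in replicate 1 and 1.74 per kb in replicate 2, so some short distances can arise between unrelated summits.

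**Figure D3:**
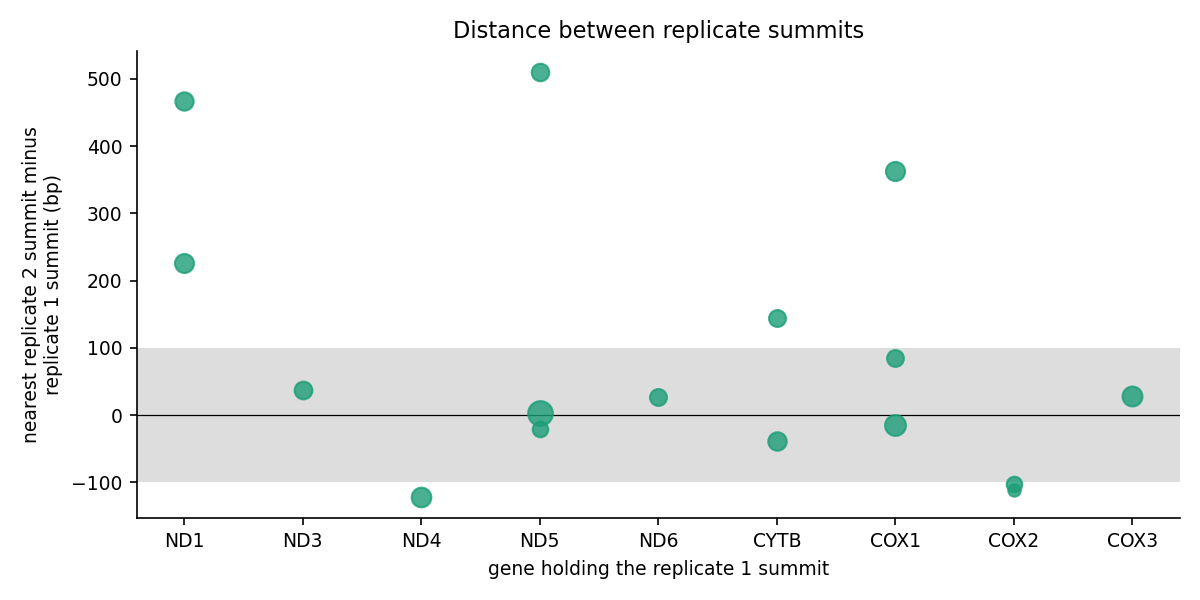
Position of the nearest replicate 2 summit minus that of each replicate 1 summit in bp (y), by the gene that holds the replicate 1 summit (x); larger points have a higher replicate 1 signal. The grey band spans 100 bp on each side and holds 8 of the 16 summits, with the strongest ND5 peak at 3 bp.

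Summits were found all along the genes. The median position was 46.8% of the gene length from the 5′ end in replicate 1 (range 0.896% to 97.1%), 48.5% in replicate 2 and 49.5% in the pooled list. Of the 15 pooled summits, 5 lay in the part of the gene nearest the 5′ end, 6 in the middle part and 4 in the part nearest the 3′ end, with each gene split into equal parts. Peaks covered 56.8% of the 9464 bp of these genes in replicate 1 and 63.0% in replicate 2, against 57.0% and 55.8% of the other 4330 bp of the molecule. Summits per kb were 1.69 in these genes and 2.08 in the rest in replicate 1, and 1.90 and 1.39 in replicate 2.

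By median signal, the ND, COX and CYTB genes did not stand above the rest of the mitochondrial genome in all lists. Their median signal was 14.6, against 11.1 in the rest, in replicate 1, and 40.0, against 28.4, in replicate 2. In the pooled list it was 42.6, against 48.2, and in the final list 49.4, against 48.2. The direction of the medians thus differed between lists. The mean, which includes the strongest ND5 peak, was higher in these genes in each list. It was 19.9 against 13.2 in replicate 1 and 60.1 against 32.7 in replicate 2. In the pooled list it was 73.7 against 45.7, and in the final list 88.5 against 45.7. The rest comprised 6 pooled peaks, in rRNA genes (3), ATP6, a tRNA gene and the noncoding region. The highest of them, 64.1 at 11181 in the large rRNA gene, lay just before ND3. ND4L, the smallest complex I gene, had 2 summits in replicate 1 (5.02 and 2.27) and none in the other lists, and ATP6, a subunit of ATP synthase, had 13.3 in replicate 1, 54.3 in replicate 2 and 60.2 in the pooled list.

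Counted by gene, a summit was listed in 9 of the 10 genes in replicate 1, in 10 in replicate 2 and in 9 in the pooled list, where 19%, 49.4% and 50.9% of all protein-coding genes had one. Among the top 140 peaks, 9 had one in replicate 1 and 9 in replicate 2, where 0.295% and 0.205% of all protein-coding genes did. The final list kept 9 of the 10 genes, all but ND2. Over all protein-coding genes, 0.22% had a final summit in the gene body, and of the pooled candidates 0.467% were on the final list. Of the mitochondrial candidates, 85.7% were. As the same lists chose the genes, nothing is read from these differences. In the final list the median signal was 49.4 over the 12 peaks of these genes, against 24.9 over the 122 nuclear peaks, and 10 of the 12 were above the nuclear median. The 6 final peaks in the rest of the molecule were alike, with a median of 48.2 and 5 above the nuclear median. The higher level was thus shared across the molecule and not particular to these genes. Both sets of final peaks had passed the same threshold, so these medians leave out the weaker candidates. Over all pooled candidates the median was 46.5 on the molecule and 4.31 on the nuclear chromosomes. It was 13.3 against 2.74 in replicate 1 and 40.0 against 3.81 in replicate 2. Final summits stood 1.30 per kb on the molecule and 0.00122 per kb on the nuclear chromosomes. The lowest signal on the final list was 20.0. The peaks of these genes just inside it were those of ND3 (23.8) and ND1 (23.9), and those just outside were the second peaks of COX2 (17.8) and COX3 (16.7). The other pooled peak of these genes off the final list was the CYTB peak of 8.87, far below it at rank 1673.

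Base composition, which the choice of genes did not use, differed along the genes. The mitochondrial genome is 76.2% A+T. In windows of 100 bp on each side, the 15 pooled summits of these genes had a median of 70.1% A+T (65.7% to 84.1%), against 75.1% over all such windows centred in these genes. The strongest ND5 summit had 68.2%, where the whole gene has 77.3%, and 7.28% of the windows in these genes were lower. The difference from all windows shrank to -1.98 percentage points with 50 bp on each side and -3.52 with 170 bp, against -4.98 with 100 bp. Both COX1 summits had 65.7%, a value below which 0.201% of the windows lay, and COX3 had 67.2%. Of the 15 summits, 5 lay above the median of the windows. These were the second ND5 summit (84.1%, with 96.3% of windows lower), ND3 (80.6%), ND6 (79.6%), the weaker COX2 summit (78.6%) and the weakest CYTB summit (76.6%). At pooled summits in the rest of the molecule the median was 73.6%, against 76.1% over all windows of the molecule, these genes included. At replicate summits there it was 77.6% in replicate 1 and 72.9% in replicate 2. A lower share at pooled summits was thus not particular to these genes. Windows overlap on 1 molecule, so no test is given.

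The shift in these genes was seen less clearly in replicate 1 than in replicate 2. In replicate 1, 9 of 16 summits had a lower A+T share than their own gene, with a median difference of -0.79 percentage points. The window of a summit within 100 bp of a gene end also holds bases outside the gene, while the gene's own share does not. In replicate 2, 14 of 18 did, with -1.94, and in the pooled list 10 of 15, with -4.67. The Spearman rho of this difference with signal was -0.45 over the 16 summits of replicate 1 and -0.48 over the 18 of replicate 2. These are peaks of 1 library each that share the molecule. The rho was -0.55 over the 15 pooled summits and -0.34 over the 12 of the final list. Base composition is known to affect how well fragments are amplified and sequenced, and its part in the signal was not tested. The read depth behind each value is unknown.

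**Figure D4:**
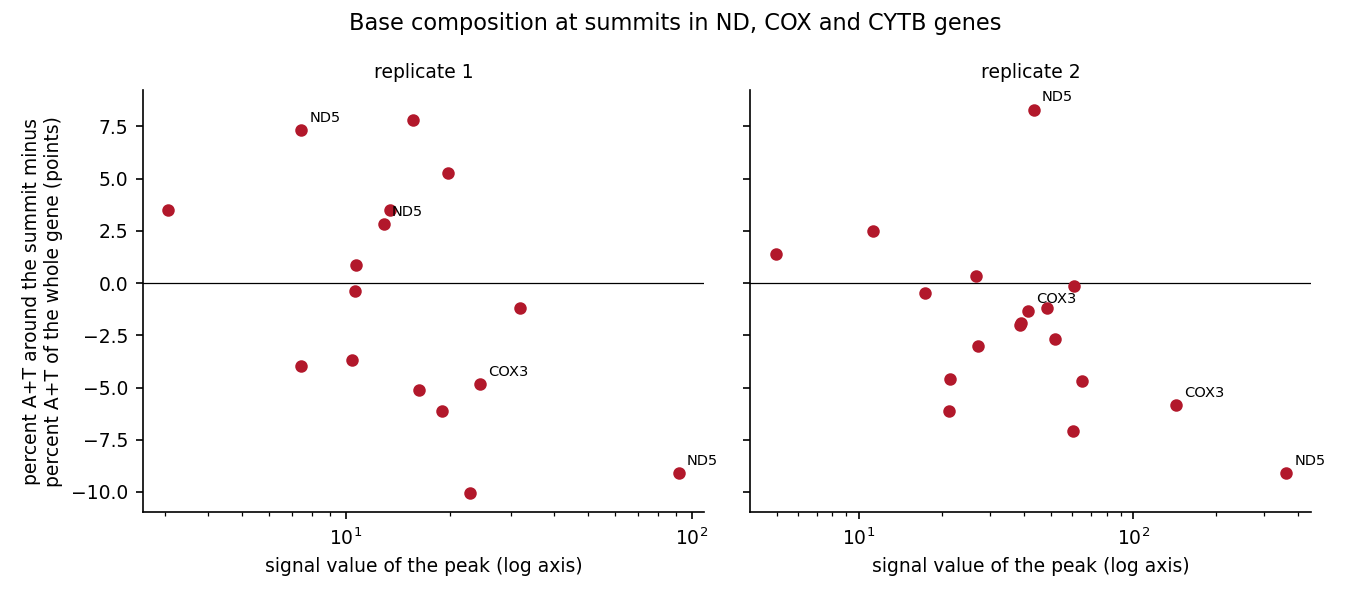
Percent A+T within 100 bp of each summit minus percent A+T of the gene that holds it, in percentage points (y), against the signal value of the peak (x, log axis), for replicate 1 on the left and replicate 2 on the right, with ND5 and COX3 named. The strongest ND5 peak lies at -9.11 points in both replicates, and points above and below 0 occur in both.

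5 motifs were searched on both strands within 100 bp of the summits. The nuclear receptor half-site AGGTCA was at 1 of 15 pooled summits, the weakest CYTB peak, and in 2.88% of all windows of this length on the molecule. Its variant AAGTCA was at 0 of 15 (4.33% of all windows). The extended GATA site TGATAA was at 3 of 15, in CYTB, ND4 and COX2 (20.8% of all windows). The run TTTTTTTT was at 2 (15.3% of windows) and ATATAT at 1 (19.2%). The ND4 match stands in the sequence above as its reverse complement. None of the 5 motifs was at the strongest ND5 summit or the COX3 summits. Over windows centred in these genes the shares were 2.07% for AGGTCA, 4.26% for AAGTCA and 18.2% for TGATAA. They were 18.2% for TTTTTTTT and 14.3% for ATATAT. At the 6 other pooled summits of the molecule, TGATAA and TTTTTTTT were each at 2, ATATAT at 1, and AGGTCA and AAGTCA at 0.

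Reads can be shared where the molecule has copies in the nuclear genome. A search of the mitochondrial sequence against the nuclear chromosomes (blastn, E-value up to 1e-05) found 2 matches within these genes. One joined 126 bp of CYTB (4903 to 5028) to chromosome X with 96.0% identity, and the other 136 bp of ND4 (6701 to 6832) to chromosome II with 70.6%. No final or pooled peak lay on either nuclear copy. The pooled peaks on the strongest ND5 summit and on COX1, COX2, COX3, ND1, ND3, ND4 and ND6 overlapped no nuclear match. Of the pooled CYTB peaks, those with summits at 4734 and 5196 touched the ends of the match of 126 bp. In the replicate lists, the CYTB peaks with summits at 5069 (replicate 1) and 5031 (replicate 2) covered that match in full. The second pooled ND5 peak touched 7 short matches of at most 56 bp, all beyond the 3′ end of the gene.

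The nuclear genes for partner subunits were looked at beside them, in a list of 30 genes of complexes I, III and IV and cytochrome c. A final summit in the gene body or up to 500 bp before it was found for 2 of 30, where 0.611% of all protein-coding genes had one. These were cox-5A (20.6) and cox-5B (20.8), subunits of complex IV, both just above the lowest final signal. Their highest signals in replicate 1 were 3.27 and 4.60, where the median nuclear peak had 2.74. In replicate 2 they were 17.3 and 10.9, where it had 3.81. Pooled candidates were found for 23 of 30, where 59.6% of all protein-coding genes had one. Apart from cox-5A and cox-5B, the best pooled rank was 469, at isp-1, the Rieske protein of complex III, with a signal of 12.4. By group, a final peak was found for 0 of 14 complex I genes, 0 of 7 complex III genes, 2 of 7 complex IV genes and 0 of 2 cytochrome c genes. The list was made with earlier results of these data known.

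By highest gene-body signal, the nuclear protein-coding genes nearest to the median of these genes were ints-8, pxn-1 and frm-7. Likeness was the Euclidean distance of log2 signal over the replicate 1, replicate 2 and pooled lists, among 2579 nuclear genes with a summit in all 3. The medians over the 9 mitochondrial genes with a summit in all 3 lists were 19.0, 60.1 and 51.7 in these lists. The values were 12.2, 30.4 and 39.6 for ints-8, a subunit of the Integrator complex (distance 1.24), 9.14, 38.5 and 47.9 for pxn-1, a peroxidasin gene (1.24), and 9.93, 33.5 and 42.4 for frm-7 (1.29). All 3 were lower than the mitochondrial medians in each list. The highest signal was taken over gene bodies of unlike length: 15016 bp for ints-8, 7554 bp for pxn-1 and 4491 bp for frm-7. The mitochondrial genes compared run from 336 bp (ND3) to 1584 bp (ND5), and length was not allowed for.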

How the data were processed

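Both ChIP-seq libraries belong to 1 group. The authors deposited narrowPeak lists for both ce11 and ce10. Per the README files, lists of peaks and background were made per replicate and from pooled alignments against a control alignment, and an optimal list was derived with the irreproducible discovery rate (IDR) procedure. Neither labels nor files name the aligner, the caller or the IDR threshold. The deposited signal value per peak (column 7) has no stated scale. The deposited −log10 q-values (column 9) reach 1 highest value in each list, held by 725 pooled candidates, so peaks were ranked by signal. Read depth is unknown, and no interval is given.

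The summit is column 2 plus column 10, written from 1. Every peak end lay within the reference lengths, and gene bodies came from RefSeq (WBcel235). Values were computed with Python 3.11.15, pandas 2.3.3, scipy 1.17.1 and blastn 2.17.0, and gene assignment was checked on simulated peaks. Named are all 10 genes, the rest of the molecule, partner genes with a final peak and the 3 genes most alike; isp-1 was chosen after its value was seen. The members and lists were chosen with earlier results of these data known. Alternatives were other overlap rules, matching distances, windows, single replicates, annotation and assembly.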

Additional observations from a re-analysis of the deposited data

How the results depend on the processing

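The count of 9 genes with a final summit stayed between 7 and 10 in the alternatives tried: 10 when 1 bp of overlap sufficed, 9 with at least 50% of the peak inside the gene, 9 with Ensembl gene bodies (chosen after seeing the data), 9 in the top 140 peaks of either replicate alone, and 7 among the 70 stronger final peaks. The ratio of the median signal in these genes to that in the rest of the molecule was 0.884 in the pooled list and reversed to 1.41 without replicate 1, 1.31 without replicate 2, 1.02 in the final list and 1.61 for means, so no direction is given. It stayed below 1 against peaks outside protein-coding genes (0.916) and without the strongest ND5 peak (0.853, chosen after seeing the data). The cause was not tested. The median position along the gene ranged from 46.8% to 48.5% with 1 replicate left out, against 49.5% in the pooled list. Matched summits ranged from 43.8% within 50 bp to 75% within 170 bp. Median A+T at the summits was 73.3%, against 75.2% over all windows in these genes, with 50 bp on each side, and 71.3%, against 74.8%, with 170 bp, so the gap was smaller than with 100 bp (70.1%, against 75.1%). The ce10 final list held 17 mitochondrial peaks, against 18 in ce11. The 2 partner genes with a final peak were the count within 1000 bp too. No paired analysis was possible because the study has 1 group. Unknown depth limits all values.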

Other observations

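In the lists for the other assembly, ce10, whose gene positions were not used here, the strongest mitochondrial peak also ranked 1 in each list. Its signal was 87.7 in replicate 1, 349 in replicate 2 and 453 in the pooled list. Mitochondrial peaks numbered 22 in replicate 1, 19 in replicate 2 and 22 in the pooled list.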
